A study of Arabidopsis thaliana with 3 samples.

Results

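The baseline transcriptome of untreated wild type vascular tissue was read from 1 array of Arabidopsis thaliana, by signal level and not by difference. Probe sets that the platform annotation gives exactly 1 gene were kept, the brightest was taken where a locus had several, and 16548 loci were ranked by their deposited log2 value. The brightest 5% comprised 827 of these 16548 loci, which is the background share of 5.00% by construction, and began at a log2 value of 6.66. Named gene families were then placed by the median of their measured members: high at or above the 75th percentile of all ranked loci (4.68), where 25.0% of loci lie, middle between the array median (3.07) and that percentile, and below under the array median.

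The study holds 3 Affymetrix Arabidopsis Gene 1.0 ST arrays with 1 array per group: wild type grown with 1 µM of the peptide hormone CEP1, the mutant cepr1-1 without peptide, and wild type without peptide, which is the array described here. Seedlings of all 3 groups were 8 days old, and each RNA came from 200 cotyledons that were treated with enzymes and sonication in batches of 20 before vascular strands were picked by hand. Plants were pooled within each array, so the values carry no replicate error, no test was made, and the number of arrays limits the precision. Probe sets differ in how strongly they hybridise, so a rank orders signals and not amounts of RNA, and no ratio between loci is given. In tissue of mixed cell types, fewer cells of a type and less RNA per cell cannot be told apart.

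A vein contains xylem, which carries water and minerals, phloem, which carries sugars, amino acids and signals, and the procambium between them that renews both. In leaves, sucrose leaves phloem parenchyma cells through SWEET exporters and is then loaded into companion cells and sieve elements. Parenchyma and bundle sheath cells around the strands hold chloroplasts, and cells beside the phloem of Arabidopsis store glucosinolates, the sulfur-rich defence compounds of the cabbage family.

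The tissue label was set against marker genes of 10 cell classes. Of 129 listed markers only 16 were matched by name to a ranked locus, and these are called measured here. None of the 20 xylem or 14 epidermis markers was matched, so the marker lists could not show either tissue. A marker gene ranked under its locus number alone would be missed, so an unmatched marker is not shown to be absent from the array. Of the 16, 11 lay above the array median, where 50% of all loci lie, and 5 lay in the brightest 5%.

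Phloem and procambium markers ranged from just under the array median up into the brightest 1% of loci. SWEET11, a sucrose exporter of the phloem, had a level of 11.47 and rank 40 of all loci. CLE41, which encodes a peptide signal that maintains procambium cells, had a level of 7.93. These were the brightest of the phloem and procambium markers measured. LHW, a transcription factor of vascular precursor cells, had a level of 5.98, the related sugar exporter SWEET13 had 5.95 and CLE44, a second gene for the CLE41 peptide, had 3.91. OPS, a polarity factor of developing sieve elements, lay just under the array median at 2.91. Both measured genes of the bundle sheath list were dim, with the tonoplast sugar carrier SWEET16 at 2.29 and the transcription factor SCL23 at 1.51.

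Markers of neighbouring cell types were present at uneven levels. The mesophyll list had 3 measured members of 20, all above the array median: RuBisCO activase (RCA) at 9.49, the Calvin cycle enzyme SBPASE at 7.55 and phosphoribulokinase (PRK) at 5.74. The same enzymes act in any photosynthetic chloroplast, and what part mesophyll carried over in dissection had in these levels was not tested. Of the guard cell lineage, the late factor FMA (FAMA), which also directs the myrosin cells beside the phloem, was at 5.37, while the earlier factors SPCH and MUTE were at 1.68 and 1.25. The 3 measured markers of myrosin and sulfur-rich cells, FMA, GTR1 at 6.45 and GTR2 at 10.51, all lay above the array median.

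The distribution of all levels was skewed towards low values. The array ranged between 0.45 and 13.79, with a 25th percentile of 1.90 and a limit for the brightest 1% of 8.64. The loci just inside the 5% limit, AT2G16050 and AT3G52250, and those just outside, AT2G47960 and AT2G07669, all had a level of 6.66 after rounding. The limit therefore cuts through a continuous range and marks no gap.

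**Figure D1:**
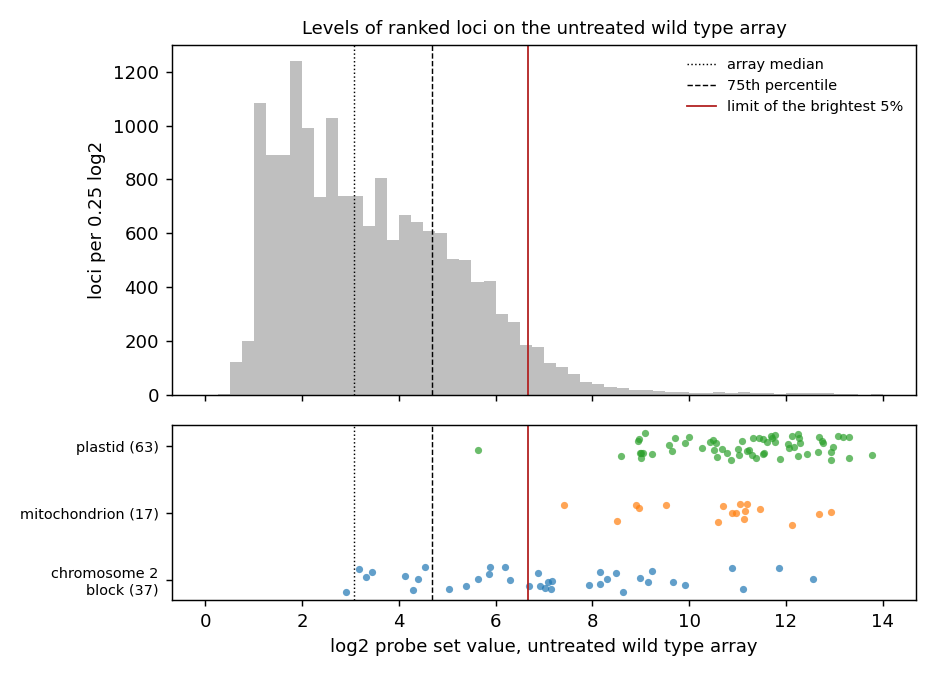
Upper panel, number of ranked loci per 0.25 log2 units of the deposited value on the untreated wild type array; lower panel, 1 point per locus for plastid loci (63), mitochondrial loci (17) and a block of chromosome 2 loci (37), with random vertical spread only. Most loci lie below 4.68, whereas the organelle loci lie at the right end, past the limit of 6.66 except for 1 plastid locus.

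Organelle genes led the array. Plastid loci took 22 and mitochondrial loci 3 of the 30 brightest places, and 52 and 12 of the 100 brightest. Of 63 plastid loci, 62 were in the brightest 5%, with a median level of 11.39. All 17 mitochondrial loci were there too, with a median of 10.97. The 16466 nuclear loci had a median of 3.07, equal to that of the whole array, and 747 of them (4.54%) were in the brightest 5%. These 747 include 22 loci of a chromosome 2 stretch described below. The way in which the RNA was primed for labelling is not stated in the sources used here, and organelle copy number and the share of transcripts with a poly(A) tail were not measured.

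The plastid genome encodes core subunits of the photosynthetic complexes and part of its own expression machinery, and the medians of these roles differed, with overlapping ranges. The brightest locus of the array was psbA, the D1 reaction centre protein of photosystem II, at 13.79. It was followed by rbcL, the large subunit of RuBisCO, and psbF, a subunit of cytochrome b559 in photosystem II, both at 13.31. The photosynthetic complexes had similar medians: 12.28 over 5 photosystem I loci, 12.26 over 13 photosystem II loci, 12.14 over 4 ATP synthase loci and 12.11 over 6 loci of the cytochrome complex that links the photosystems. Their brightest members were psaI at 12.96, psbA, the proton channel subunit atpH at 13.17 and the cytochrome gene petB at 13.08.

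Plastid loci for other functions had lower medians. The NDH complex, which feeds electrons back into photosynthetic transport, had a median of 10.71 over 10 loci, between ndhF at 8.93 and ndhJ at 11.78. The 13 ribosomal protein loci had a median of 10.52 and the widest spread, between rps16 at 5.63 and rpl14 at 12.74. The 4 subunits of the plastid RNA polymerase were the dimmest group, with a median of 9.03, between rpoB at 8.58 and rpoA at 10.26. Photosystem II also held dim members, psbM at 9.00 and psbT at 9.04. The only plastid locus outside the brightest 5% was rps16.

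**Figure D2:**
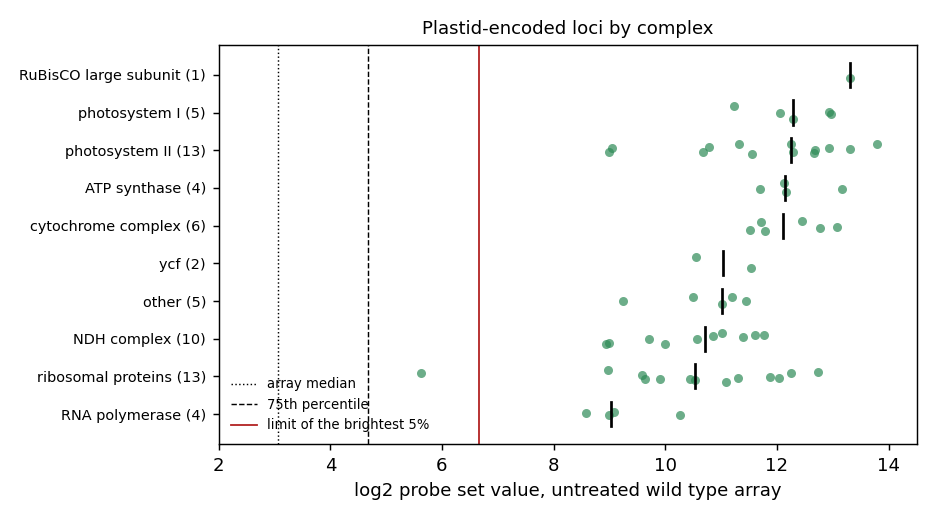
Level of each of the 63 plastid-encoded loci on the untreated wild type array (points, log2), grouped by the complex that the product belongs to, with the group median as a black bar and the number of loci in brackets. The photosynthetic complexes centre between 12.11 and 12.28, above the NDH complex (10.71), ribosomal proteins (10.52) and RNA polymerase (9.03).

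Mitochondrial loci separated in a like way. The 8 complex I subunits, which take electrons from NADH, had a median of 11.18, between nad6 at 10.97 and nad1 at 12.68. The cytochrome oxidase subunit gene cox1 was the brightest at 12.94, with cox2 at 10.70 and the ATP synthase gene atp1 at 10.88. The 4 loci for cytochrome c maturation were dimmer, with a median of 9.01 and the lowest mitochondrial value, 7.41 for ccmB. Among the ranked loci, respiratory subunits thus stood above the maturation factors in signal. Probe sets listing several genes were left out, among them those naming cob, cox3 and atp9, with levels such as 11.57 and 7.78 for cob.

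A stretch of nuclear loci on chromosome 2 was bright as well. Of the 37 loci from AT2G07676 to AT2G07785, 22 were in the brightest 5% and 36 above the array median, with AT2G07741 at 12.55, AT2G07732 at 11.85 and AT2G07707 at 11.11 at the top. The ends of the stretch were set after the levels were seen, so the counts only describe it. This part of chromosome 2 carries a copy of the mitochondrial genome in Arabidopsis. The annotation pairs a locus of that region with a mitochondrial gene name on 26 probe sets that were left out for listing several genes, and 23 of these were at or above the limit. Signals of the nuclear copies and of the mitochondrial genes cannot be told apart there, and the locus rpl2, at 12.81, was assigned to no genome, since both organelle genomes have a gene of that name.

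Outside the organelles, 149 nuclear loci of the brightest 5% had a symbol of their own. The 4 loci among the 30 brightest that were assigned to nuclear chromosomes are known here by locus only. They were AT3G07850 at 13.19, AT3G20362 at 12.84, AT1G67870 at 12.18 and AT2G07741 at 12.55. The last lies in the chromosome 2 stretch, so its signal may be mitochondrial. The brightest locus with a symbol was SWEET11. The other SWEET genes were far from it: SWEET4 had a level of 6.64, just under the limit, SWEET13 had 5.95, and the dimmest of 16 was SWEET8 at 1.35. The family median of 2.16 lay below the array median, and 6 of 16 members lay above it. Of the 16, only SWEET11 was in the brightest 5%. SWEET4, SWEET13 and SWEET1, the last at 5.12, were nevertheless above 4.68, the limit used for high families. SWEET12 was not among the 16 matched loci, so its level is not known here.

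Several bright loci act in transport and sulfur metabolism. The glucosinolate and sulfate lists used here were drawn up after the brightest named loci were known, and their counts only describe them. GTR2, an importer of glucosinolates into storage and phloem cells, had a level of 10.51, and its close relative GTR1 had 6.45. Of the 14 nitrate and peptide transporters they belong to, 8 lay above the median and 3 in the brightest 5%, the others being AT2G26690 at 8.69 and AT1G59740 at 7.98. AOP3, an enzyme that modifies glucosinolate side chains, had a level of 9.30. Together with UGT74B1, which adds the sugar in glucosinolate synthesis, at 4.86 and AOP1 at 0.86, they formed a list of 5 measured genes with 4 above the array median and 2 in the brightest 5%. In sulfate assimilation, the sulfite reductase SIR was at 8.94, MMT, which makes S-methylmethionine for phloem transport, at 7.45 and the cystathionine lyase gene CBL at 7.28. Of 8 measured genes in that list 7 lay above the median, and the dimmest was APS4 at 1.66. GSTU20 and GSTL3, which encode glutathione transferases, had levels of 9.84 and 8.55, but their family of 15 had a median of 3.07, equal to that of the array.

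Further nuclear loci among the brightest encode proteins of other kinds. APA1, a vacuolar aspartic protease, had a level of 10.74 and CYS1, an inhibitor of cysteine proteases, had 10.50. The peroxidase PRXR1 had 10.40 and the beta-glucosidase BGLU33 had 10.15. GAMMA-VPE, a vacuolar processing enzyme of vegetative organs, was at 7.56, whereas BETA-VPE and ALPHA-VPE were at 2.50 and 1.69. SCPL49, a serine carboxypeptidase-like protein, was at 8.72, in a family of 32 whose median was 2.85. In that family 14 of 32 loci lay above the array median.

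**Figure D3:**
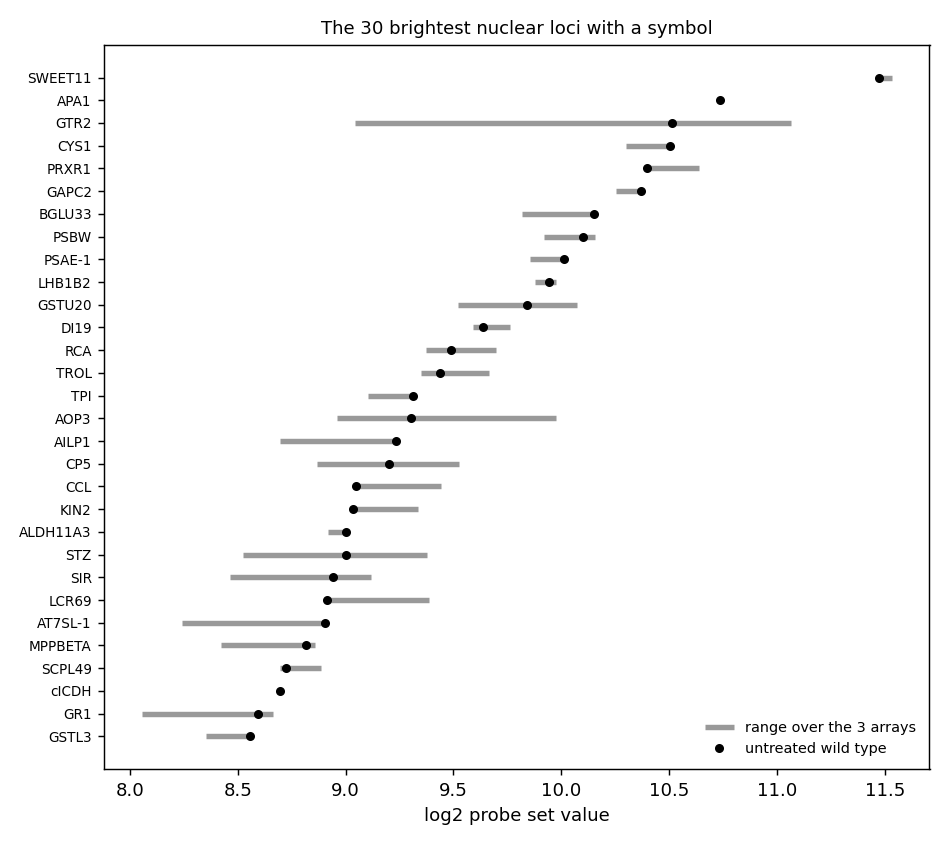
The 30 brightest nuclear loci with a symbol, in order of their level on the untreated wild type array (black points, log2 value); grey bars span the lowest and highest value over the 3 arrays of the series. SWEET11 leads at 11.47, and GTR2 has the widest bar, between 9.04 and 11.07.

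Nuclear genes for photosynthesis, in lists drawn up with the levels of the brightest loci known, included several bright ones. PSBW of photosystem II was at 10.10, PSAE-1 of photosystem I at 10.01 and the antenna protein LHB1B2 at 9.94. Of 9 listed nuclear photosystem and antenna genes, 8 lay above the median and 6 in the brightest 5%, and LHCB4.3 was the exception at 2.12. LPA19, which the name pattern for light harvesting and photosystem genes also matched, was not in this list. It lay below the array median at 2.50. The chlorophyll synthesis genes CHLM and PORB had levels of 7.71 and 7.18, within a list of 9 of which 6 lay above the median and HEMA3 was lowest at 1.78. All 4 nuclear genes of the NDH list lay above the median, with NdhL at 6.82. TROL, which tethers ferredoxin-NADP reductase to the thylakoid membrane, was at 9.44.

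The lists of carbon and energy metabolism, storage and recycling were also drawn up after the brightest named loci were known, so that their placing in part restates the ranking. In glycolysis, the cytosolic glyceraldehyde-3-phosphate dehydrogenase GAPC2 was at 10.37 and triosephosphate isomerase TPI at 9.31, and 7 of 8 listed genes lay above the median, the exception being the pyruvate decarboxylase PDC3 at 1.25. The cytosolic isocitrate dehydrogenase cICDH was at 8.70, the mitochondrial subunit IDH-V at 7.19 and the succinate dehydrogenase subunit SDH1-1 at 7.09. Of the 10 isocitrate and succinate dehydrogenase loci, 6 lay above the median, and IDH-IV was lowest at 1.35. All 8 aldehyde dehydrogenases lay above the median, between ALDH22A1 at 4.84 and ALDH11A3 at 9.00. All 8 genes of the ascorbate and glutathione cycle did too, between the stromal peroxidase SAPX at 5.21 and glutathione reductase GR1 at 8.59.

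Storage and recycling genes followed. Of 7 starch genes 6 lay above the median, led by AT4G24450, a glucan water dikinase relative, at 7.94. Of 7 nitrogen recycling genes 6 lay above the median, led by ALN, an allantoinase of purine breakdown, at 7.66, and AlaAT1, an alanine aminotransferase, at 7.17. ATP-citrate lyase, which makes cytosolic acetyl-CoA, had 3 of 4 subunit genes above the median, with ACLA-3 at 6.00 and ACLA-2 at 2.85. All 5 matched proton pump genes lay above the median without reaching the brightest 5%, between 4.49 and 6.48 (VHA-A1). Those with a symbol, VHA-A1, VHA-A2, VHA-A3 and AVA-P2, encode subunits of the vacuolar ATPase. AHA3, a proton pump on the phloem marker list, was not matched. Of the tonoplast sugar carriers, TMT1 and TMT2 were at 5.73 and 4.86, and TMT3 at 2.91.

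In total 80 families or pathway lists had at least 3 loci matched by name, and 27 of them were high, 21 middle and 32 below. Of the 16548 ranked loci only 1803 carry a symbol, so a family's matched loci are not all of its genes. Of these, 40 came from a list of 78 families, and 9 of the 40 were high, 10 middle and 21 below. The remaining families of that list had no matched locus (26, among them the aquaporins and the sucrose and hexose carriers) or only 1 or 2 (12). The other 40 were drawn up after the levels of the first and of the brightest named loci had been seen, and their split of 18, 11 and 11 is not independent of those levels. Lists overlap: TAPX and SAPX, for example, belong to the peroxidases and to the ascorbate and glutathione cycle. Most loci of the light harvesting and photosystem family and of the ribosomal protein family are also counted as chloroplast-encoded genes. The 9 loci of the nuclear photosystem and antenna list are in the light harvesting family too. The 27 high lists are therefore not separate sets of genes.

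**Figure D4:**
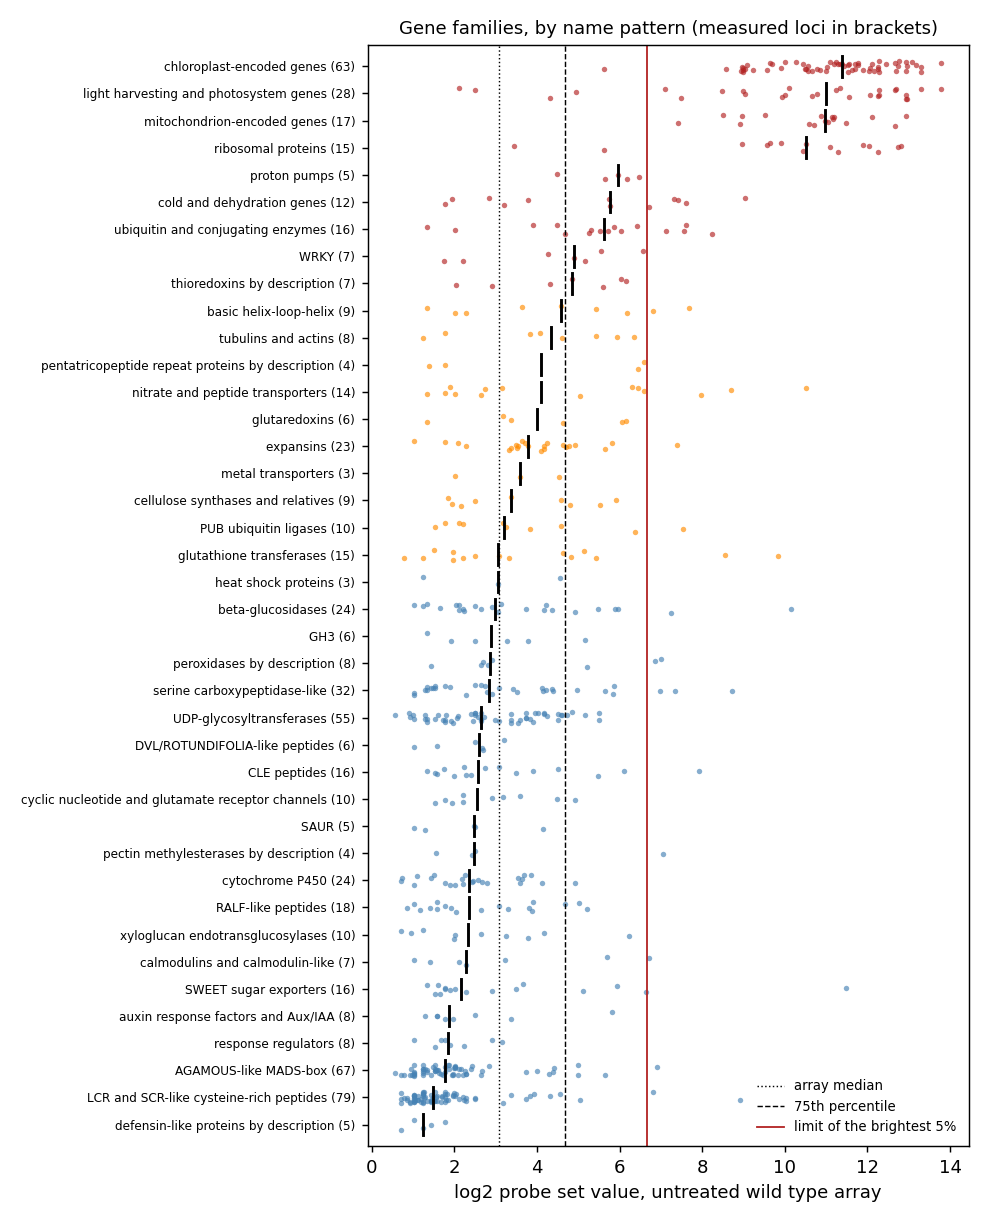
Levels of the measured loci (points, log2) of 40 gene families on the untreated wild type array, ordered by the family median (black bars), with the number of loci in brackets; red families are high, orange middle and blue below. Organelle-encoded families stand apart at the top. Cysteine-rich peptides, AGAMOUS-like factors and the 5 PDF1-group loci described as defensins are at the bottom, with medians between 1.25 and 1.78.

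**Figure D5:**
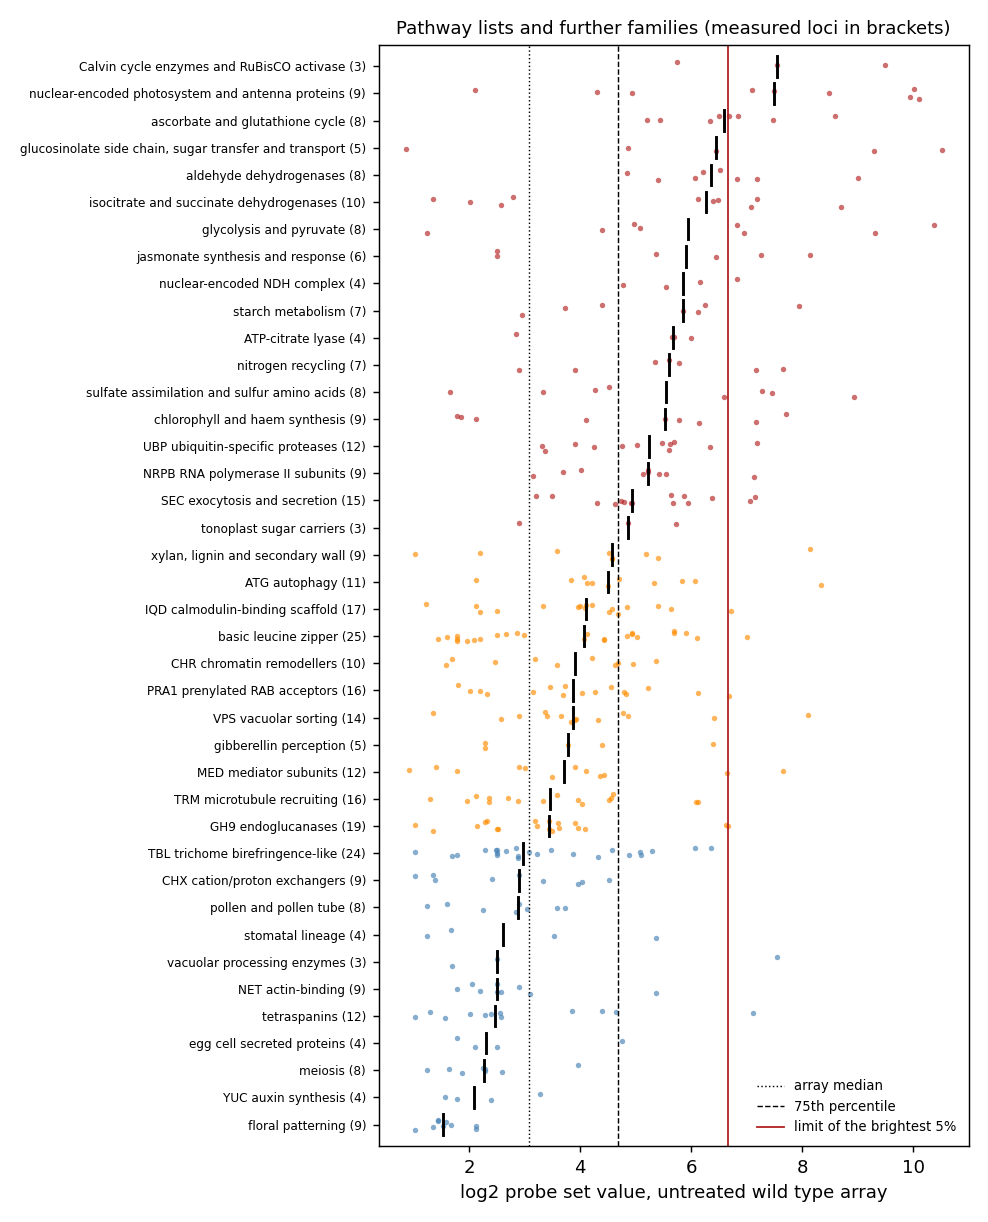
Levels of the measured loci (points, log2) of the other 40 families and pathway lists on the untreated wild type array, in the same form and colours as the plot of families matched by name pattern. Lists of chloroplast and primary metabolism have their medians (black bars) at the top, up to 7.55, and floral patterning is at the bottom with 1.53.

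General cell machinery was mostly at or above the middle. All 12 UBP ubiquitin-specific proteases lay above the array median, between UBP22 at 3.31 and UBP23 at 7.18. So did all 9 NRPB subunits of RNA polymerase II, between NRPB9A at 3.15 and NRPB8B at 7.14, and all 15 SEC genes of secretion, between AtSec20 at 3.20 and AT3G63460 at 7.15. In the brightest 5% were 1 of the 12, 1 of the 9 and 2 of the 15 loci. Of 16 ubiquitin and ubiquitin-conjugating enzyme genes 14 lay above the median, led by UBC30 at 8.23, UBC32 at 7.62 and UBC29 at 7.56. Autophagy genes (ATG) were in the middle class by their median of 4.50, yet 10 of 11 lay above the array median, with ATG8F, which coats autophagosome membranes, at 8.34.

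Families of membrane traffic, the cytoskeleton and chromatin fell into all 3 classes. Of 14 VPS genes of vacuolar sorting 11 lay above the median, with VPS2.1 at 8.10. Of 16 PRA1 genes, which encode partners of RAB proteins, 12 did, with PRA1.A1 at 6.68, and of 17 IQD genes 13 did, with IQD31 at 6.72. Tubulins and actins had 6 of 8 loci above the median, between TUA6 at 1.25 and TUB9 at 6.34. CHR chromatin remodellers had 7 of 10 above it, with CHR17 at 5.37. NET actin-binding proteins were below, with 2 of 9 above the median and NET1D highest at 5.37, and so were tetraspanins, with 4 of 12 above it and TET8 at 7.12. Loci matched by Mediator names ranged between MED22B at 0.92 and MED19A at 7.65, with a median of 3.70 over 12 loci. Among them AT5G03830, AT5G03870 and AT5G03880, at 2.91, 1.78 and 6.65, have no symbol of their own and matched through a synonym. Whether these encode Mediator subunits was not checked, so the median may include other genes.

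Cell wall families were split. HCT, an enzyme of lignin precursor synthesis, had a level of 8.15, and of 9 genes for xylan, lignin and secondary wall 7 lay above the median, with CCOAMT lowest at 1.02. Expansins, which loosen walls, had 19 of 23 loci above the median and 1, EXLA1 at 7.38, in the brightest 5%, where 5.00% of all loci lie. GH9 endoglucanases had 12 of 19 above the median, led by GH9C2 at 6.67. Xyloglucan endotransglucosylases lay below the array median as a family, at 2.34, with EXGT-A3 at 6.24 as their brightest member.

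Stress-related lists held both extremes. KIN2, a cold-induced protein, was at 9.03, RD2 at 7.62 and COR47, a dehydrin, at 7.41, while the neighbouring paralog KIN1 was at 3.80. The 12 loci matched by these name patterns had a median of 5.76 and included RAB6A, a small GTPase, whose symbol fits the pattern but not the role. STZ, a zinc finger repressor of stress responses, was at 9.00 and DI19, a drought-related zinc finger protein, at 9.64. Of the jasmonate list, OPCL1, which acts in jasmonate synthesis, was at 8.14 and the transcription factor ORA47 at 7.26, while MYC4 and the methyltransferase JMT were at 2.50. Calmodulin-like genes had a median of 2.29 over 7 loci, although CML38 reached 6.72. What part the enzyme treatment, sonication and dissection had in these stress-related levels was not tested.

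Transcription factor families differed from each other. WRKY factors were high with a median of 4.91 over 7 loci, led by WRKY20 at 6.57. Basic helix-loop-helix factors were in the middle with 4.58 over 9 loci, led by the iron regulators ILR3 at 7.67 and bHLH121 at 6.80. Basic leucine zipper factors followed with 4.07 over 25 loci, led by BZIP53 at 7.00. At the other end, AGAMOUS-like MADS-box factors had a median of 1.78 over 67 loci, only 9 of them above the array median. Within that family AGL26 stood out at 6.91, followed by AGL34 at 5.65 and AGL16 at 5.00. Response regulators of cytokinin signalling had 1 of 8 loci above the median, RR18 at 3.15.

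The secreted peptide families had medians below that of the array. LCR and SCR-like cysteine-rich peptides had a median of 1.49 over 79 loci, and 10 lay above the array median. LCR69 at 8.91 and LCR68 at 6.81 were in the brightest 5%, and the next, LCR20, was at 5.05. CLE peptides had a median of 2.57 over 16 loci, led by CLE41, CLE42 at 6.11 and CLE26 at 5.47. RALF-like peptides, which signal at the cell wall, had 7 of 18 loci above the median and none in the brightest 5%, with RALFL22 highest at 5.21. The 5 loci matched by the description pattern for defensins, all of the PDF1 group, lay below the array median, with PDF1.5 highest at 1.78. PDF1.4, which the name patterns placed with the LCR and SCR-like peptides, lay above it at 3.37. Whether other loci of that list, LCR69 and LCR68 among them, are defensins was not checked. The 5 loci therefore do not stand for all defensin genes.

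Large enzyme families of specialised metabolism were below the median too. UDP-glycosyltransferases had 24 of 55 loci above it and none in the brightest 5%, between UGT72E3 at 0.57 and UGT87A2 at 5.50. Cytochromes P450 had 7 of 24 above it, led by CYP71B36 at 4.92. Beta-glucosidases had a median of 2.98 over 24 loci, just under that of the array, with BGLU33, BGLU44 at 7.26 and PYK10, a root enzyme that cleaves glucosinolates, at 5.97 as the brightest. Trichome birefringence-like genes, which acetylate wall polymers, had 11 of 24 above it.

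Lists for reproductive organs were low, and hormone lists were mixed. None of 9 floral patterning genes reached the array median, and UFO and SPL were highest at 2.12. Meiosis genes had 1 of 8 above it, ATMND1 at 3.97, egg cell secreted proteins 1 of 4, EC1.2 at 4.75, and pollen genes 2 of 8, VGDH1 at 3.73 and ANX1 at 3.58. Auxin response genes (Aux/IAA) had 2 of 8 above it, led by IAA18 at 5.82, and the auxin synthesis genes of the YUC family 1 of 4, YUC6 at 3.28. GH3 genes, which conjugate auxin and other hormones to amino acids, had 3 of 6 above it, and gibberellin perception was in the middle class with 3 of 5 above it and the receptor gene GID1A at 6.40.

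The bright nuclear loci differed from the dim ones in gene structure. Without the chromosome 2 stretch, the 725 nuclear loci of the brightest 5% had a median gene length of 2343 bases in the RefSeq gene table, close to the 2360.5 bases of the other loci above the array median. The 8274 loci at or below the median had 1505 bases. Genes under 1000 bases made up 7.72% of the bright, 9.41% of the other upper and 28.6% of the lower loci. More than 1 annotated transcript was given for 41.2%, 46.9% and 28.0% of the loci in the same 3 classes, and a symbol of their own for 20.6%, 11.5% and 8.67%. Over 20 bins of increasing level, the median length grew with level up to 2771.5 bases in the eighteenth bin and was 2401.5 bases in the brightest bin. Gene length and the number of probes that sit on a gene were not separated. Also without that stretch, each of the 5 nuclear chromosomes had at most 4.66% of its loci in the brightest 5%.

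The bright list was largely shared by the other arrays of the series. Of the 827 loci, 778 (94.1%) were also in the brightest 5% of the array with CEP1 and 775 (93.7%) in that of cepr1-1, and 736 (89.0%) in both. Over the 3 arrays the range of a bright locus had a median of 0.15 and a 95th percentile of 0.90 log2 units. The largest ranges were those of AT1G06830, between 3.39 and 9.00, of the neighbours AT1G67860, between 6.17 and 9.45, and AT1G67865, between 7.41 and 10.11, and of GTR2, between 9.04 and 11.07. For all 4 the lowest value was that of cepr1-1 and the highest that of the array with CEP1, and untreated wild type lay between them. The next, AT4G36850, had the opposite order, at 6.05 with CEP1, 8.00 in cepr1-1 and 7.39 in untreated wild type. Of the 32 bright loci with a range of at least 1, 25 had the order of those 4, 5 the opposite order and 2 neither. Among all 16548 ranked loci, 247 had a range of at least 1, and their orders were not counted. The split is therefore not shown to be particular to bright loci. In 18.4% of the bright loci, against 54.5% of all ranked loci, the 3 arrays had exactly the same deposited value. How the arrays were normalised is not known, and the arrays differ by group, so these shares do not stand in for replicates.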

How the data were processed

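The authors deposited 1 value per probe set and array. The submitters' processing notes name Affymetrix Expression Console 1.3. The deposited values are read as log2 from their range, since no header names the scale. How the background was corrected, how arrays were normalised and probes summarised, and which genome build applied, was not given in the sources used here. There are no background values, so signal over background is unknown.

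Of 38408 probe sets, the platform annotation gives 1 gene for 16722, several for 759 and lists none for 20927. Current names came from the RefSeq gene table: gene IDs matched 16574 probe sets, loci a further 96 and symbols 50, and 2 did not match (rpl2 and FLP1). Organelle loci were taken by the table's chromosome, since its plastid and mitochondrial tags carry other locus numbers. The brightest probe set stood for each of 148 loci with several. Of the ranked loci 1803 have a symbol other than the locus.

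Families were matched by symbol or description pattern and need 3 measured loci for a median. Names were taken by rule: the 30 brightest loci, the 30 brightest with a symbol, the 3 brightest and the dimmest of each family, the measured markers and the loci around the limit; the text gives those of the main families and a few more chosen after their values were seen. The members and lists were chosen with earlier results of these data known. Sequence features planned for promoters and proteins were not analysed here. The class limits alone were run on 200 lists planted in a known class, and 200 were placed in that class. Planted lists are not found by name, so the matching of loci to families was not tested. Python 3.11.15, pandas 2.3.3, numpy 2.4.6 and matplotlib 3.10.9 were used. Alternatives were the probe set kept, the normalization, the share called bright, the loci ranked, a filter on dim loci and the array ranked.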

Additional observations from a re-analysis of the deposited data

Results flagged for a closer look

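On the untreated wild type array, bright signal also lay in probe sets outside the ranked loci. Of the probe sets that the annotation does not list, 1823 (8.71%) were at or above the limit of 6.66, and 13 were brighter than every ranked locus, up to 14.17. Of the probe sets with several genes, 80 (10.5%) were at or above the limit. None of these probe sets was assigned to a single gene.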

How the results depend on the processing

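The limit of the brightest 5%, 6.66 as reported, became 8.64 for the brightest 1%, 5.91 for the brightest 10%, 7.10 with all probe sets ranked, 7.35 with loci at or above the array median only and 6.52 with nuclear loci only outside the chromosome 2 stretch, an alternative chosen after seeing the data. The median gene length was 2013 bases in the brightest 1%. With the brightest 1% and 10%, 158 and 1584 loci were shared with the CEP1 array and 155 and 1546 with cepr1-1, because the lists change in size. A move of 0.1 log2 or 10% was counted, limits also set after seeing the data. The number of high families was 27, but 18 when only loci at or above the median formed the comparison, where 30 of 80 families changed class, since the dividing values rise, and 24 with nuclear loci only, where 77 families could be placed and none changed class. Under the other alternatives at most 3 of 80 changed class: beta-glucosidases, heat shock proteins, trichome birefringence-like genes, UDP-glycosyltransferases, peroxidases, PUB ligases and glutathione transferases. Of 16 markers 10 or 11 lay above the median under every alternative run. No paired analysis was possible because each group has 1 array. With 1 array the error of a level is unknown.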

Other observations

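Bright nuclear loci were sometimes direct neighbours. Among the 725 placed on the chromosomes, 58 formed 27 runs of adjacent protein-coding loci that were all in the brightest 5%, 23 runs of 2 and 4 of 3. Of 440 adjacent ranked pairs whose first locus was bright, 31 (7.05%) had a bright second locus, against 4.45% over all 10367 pairs. BGLU33 at 10.15 lay beside AT2G32870 at 11.12 and AT2G32880 at 10.40. AT1G67860 at 8.15, AT1G67865 at 9.25 and AT1G67870 at 12.18 formed another run, and AT4G15660, AT4G15670 and AT4G15680, at 7.74, 7.43 and 8.23, a further one. Shared probe sequence between neighbours was not tested, and runs were looked for after the first had been seen.

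Families with only 1 or 2 measured loci gave single values. Of the homeobox genes, HAT2, which responds to auxin, was at 7.97 and PHV, which sets the upper side of leaves and the xylem side of veins, at 4.39. The metallothioneins MT1C and MT1B were at 7.58 and 1.43. The laccase LAC16 was at 3.58 and the factors LBD16 and LBD29 at 1.99 and 1.34. The kinases ATMPK8 and ATMPK13 were at 6.52 and 4.79.

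Many loci shared their exact value with another locus of the array: 17.3% of the brightest 5%, 66.0% of the other loci above the median and 81.2% of those at or below it. Small differences in rank among dim loci therefore carry little information.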
